A study of Homo sapiens with 8 samples.

Results

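The ZBTB genes are a family of 41 genes whose symbols start with ZBTB and a number, out of 19775 genes measured on the arrays. They were taken by their symbols, and each is read by the probe set that names it alone and had the highest mean over the 8 arrays. RefSeq lists 41 symbols of this form, and all 41 had such a probe set. Which probe set stands for a gene was therefore chosen on measured levels, whereas the differences between groups played no part in that choice.

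A ZBTB protein carries a BTB domain at its amino-terminal end and C2H2 zinc fingers further on. The fingers bind DNA, and the BTB domain pairs proteins with each other and can hold corepressors such as NCoR, SMRT or BCOR with their histone deacetylases, or the ubiquitin ligase scaffold CUL3. Many members are repressors with known roles in blood cell fate, in reading methylated CpG sites and in control of the cell cycle, and several have been linked to breast or other cancers.

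The cells were T47D, a luminal breast cancer line with oestrogen receptor, and MDA-MB-231, which is triple-negative and mesenchymal in character. A lentivirus brought in a short hairpin RNA, either the control shCtrl or shXBP1, and infected cells were selected in puromycin at 2 ug/ml. XBP1, the target, is a factor that drives transcription in the unfolded protein response. All 8 samples, controls included, then spent 24 h at 0.1% O2 in glucose-free medium. Each of the 4 groups, by line and hairpin, held 2 arrays, and the labels name 1 hairpin per target. The values are log2 expression levels made by RMA, which normalizes arrays against each other. A level of 1 gene is not set against that of another gene here, because probe sets differ in brightness. A change from or to a level under the median of all probe sets (5.96) is given on the log2 scale with no fold. A gene was called changed, and is said to have risen or fallen, where limma's adjusted p over all 19775 genes was under 0.05.

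The knockdown was present in the arrays labelled shXBP1. XBP1 read 12.41 and 12.56 in T47D with shCtrl against 7.52 and 7.16 with shXBP1, and 10.83 and 10.69 against 7.13 and 6.69 in MDA-MB-231. Replicate arrays correlated at 0.985 to 0.996 over the 41 ZBTB genes. The summed log2 levels of 10 luminal markers were 125.9 to 129.2 on T47D arrays and 72.8 to 77.4 on MDA-MB-231 arrays, and those of 10 mesenchymal markers were 60.4 to 63.6 and 103.8 to 105.2. Of 8 leukocyte and 6 fibroblast markers, 4 and 3 lay under the median of all probe sets on every array, and their sums were 40.2 to 42.0 and 35.4 to 37.0 over all arrays. In bulk RNA, fewer cells of a kind and less RNA per cell cannot be told apart.

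Promoters of 5 members are shown first. They were picked from the genes that changed in both lines and hold stress-related or shared motifs searched for. Other members, such as ZBTB24 and ZBTB37, met this description too. RefSeq's table for GRCh38.p14 held a promoter window for 35 of the 41 members, each 300 bases long, with 250 before and 50 after the gene's start. The windows are printed 5′ to 3′ on the gene's own strand, and capitals mark every match to a searched motif on either strand. ZBTB43 and ZBTB34 follow each other on chromosome 9 with no protein-coding gene starting between them, and both rose in T47D and fell in MDA-MB-231. The ZBTB34 window is chr9:126860389-126860688 (+ strand), that of ZBTB43 is chr9:126804790-126805089 (+), that of ZBTB8A is chr1:32539177-32539476 (+), that of ZBTB21 is chr21:42010311-42010610 (-) and that of ZBTB7A is chr19:4066850-4067149 (-).
ZBTB34: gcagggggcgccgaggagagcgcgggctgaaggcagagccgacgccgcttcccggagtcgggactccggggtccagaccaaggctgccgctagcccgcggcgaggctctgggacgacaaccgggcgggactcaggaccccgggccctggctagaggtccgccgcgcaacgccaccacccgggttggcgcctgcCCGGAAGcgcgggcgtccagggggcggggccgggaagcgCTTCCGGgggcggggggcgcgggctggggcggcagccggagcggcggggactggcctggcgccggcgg
ZBTB43: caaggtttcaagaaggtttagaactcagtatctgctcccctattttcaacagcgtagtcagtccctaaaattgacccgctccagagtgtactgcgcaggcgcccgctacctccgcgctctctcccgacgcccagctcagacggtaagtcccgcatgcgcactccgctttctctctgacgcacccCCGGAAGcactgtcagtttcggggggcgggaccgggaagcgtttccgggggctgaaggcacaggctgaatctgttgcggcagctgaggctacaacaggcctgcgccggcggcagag
ZBTB8A: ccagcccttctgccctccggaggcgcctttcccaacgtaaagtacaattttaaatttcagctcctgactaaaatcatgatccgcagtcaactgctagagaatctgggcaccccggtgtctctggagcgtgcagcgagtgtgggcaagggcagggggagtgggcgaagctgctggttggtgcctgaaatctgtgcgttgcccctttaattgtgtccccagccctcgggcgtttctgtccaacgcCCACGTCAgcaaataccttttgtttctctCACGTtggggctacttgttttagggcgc
ZBTB21: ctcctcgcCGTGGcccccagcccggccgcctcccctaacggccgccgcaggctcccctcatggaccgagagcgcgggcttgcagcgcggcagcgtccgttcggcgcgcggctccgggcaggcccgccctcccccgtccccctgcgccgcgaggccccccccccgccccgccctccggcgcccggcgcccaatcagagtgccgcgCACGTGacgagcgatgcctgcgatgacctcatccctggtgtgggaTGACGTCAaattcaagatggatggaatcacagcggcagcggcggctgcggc
ZBTB7A: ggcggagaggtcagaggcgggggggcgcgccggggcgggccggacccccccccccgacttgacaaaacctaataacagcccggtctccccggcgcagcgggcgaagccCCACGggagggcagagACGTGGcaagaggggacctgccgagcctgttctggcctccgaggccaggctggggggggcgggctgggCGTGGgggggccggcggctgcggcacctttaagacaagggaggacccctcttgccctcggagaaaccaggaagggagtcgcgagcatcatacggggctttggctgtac

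The windows of ZBTB34 and ZBTB43 shared the letters CCGGAAG, the core that ETS factors bind, which stood 2 times in ZBTB34 and 1 time in ZBTB43. This motif was chosen because these sequences hold it, so no share of ZBTB windows is set against the 10.3% of all 35116 windows that do. The ZBTB8A window held TGACGTGG, the unfolded protein response element that XBP1 and ATF6 are known to bind, and it was the only one of 35 ZBTB windows to do so (2.86% against 0.729% of all). The ZBTB21 window held TGACGTCA, the cyclic AMP response element, as did those of ZBTB11 and ZBTB48 (8.57% against 1.85%).

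Shorter motifs were more widespread. ACGTG, the core of the hypoxia response element, was in 14 of 35 ZBTB windows (40.0%) against 21.4% of all windows. CCACG, the XBP1 side of the ER stress response element, was in 21 (60.0%) against 38.1%, whereas the whole element, with its CCAAT side, was in no ZBTB window and in 0.0769% of all. The Kaiso sequence TCCTGCNA was in 2 ZBTB windows, those of ZBTB7C and ZBTB47 (5.71% against 4.69%). TGACGTGG holds ACGTG on one strand and CCACG on the other, and CACGTG holds ACGTG on both strands, so these matches overlap. The ZBTB windows were richer in G and C, with a median of 64.7% against 58.7% and of 24 CpG sites against 14, and these shares were not adjusted for that. The set of all windows was also not limited to protein-coding genes or to a single window per gene, whereas each member had a single window. A match is a string of letters, and binding was not measured.

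In T47D, loss of XBP1 went with higher levels across much of the family. Of the 41 members, 24 rose (58.5%) and 1 fell, against 15.5% of all genes called higher, 13.5% called lower and 29.1% called in either direction. The median change over the 41 members was 0.53 on the log2 scale, against -0.02 over all genes, and 34 of 41 values lay above 0. For 32 members the 2 pairs of arrays did not overlap, which was so for 64.1% of all genes. The changes ranged from -0.47 to 2.31, and 5 of the 24 rises were of 1 or more on the log2 scale. No filter on dim genes was applied, and 37 of the 41 members had a mean over the median of all probe sets, the others being ZBTB6, ZBTB8B, ZBTB16 and ZBTB46. Calls were commoner among brighter genes, and the shares of all genes were not matched for level. Of the 12701 genes over that median, 21.6% rose in T47D and 9.6% fell in MDA-MB-231. Of the 37 members over it, 24 rose in T47D and 13 fell in MDA-MB-231.

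In MDA-MB-231 the balance lay the other way. There 14 members fell (34.1%) and 4 rose, against 6.68% of all genes called lower, 10.6% called higher and 17.2% in either direction. The median was -0.13 against 0.03 over all genes, the changes ranged from -1.03 to 0.85, and 27 of 41 values were below 0. The arrays did not overlap for 29 members, against 54.5% of all genes. Both this line's groups differed in a measure of RNA integrity, the 3' minus 5' signal of ACTB, whose means were 1.26 with shCtrl and 0.999 with shXBP1 (1.00 and 1.12 in T47D). That of GAPDH was 0.302 and 0.312, and the part of RNA integrity in these falls was not tested.

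Many MDA-MB-231 calls were lost when a single array was left out. Leaving an array out also removes a residual degree of freedom, and the part of this in the lost calls was not tested. The count of 14 was 4 without shCtrl replicate 1 of this line, 8 without its shCtrl replicate 2 and 7 without its shXBP1 replicate 1, and 4 when the fit held only this line's arrays. All lost members kept negative values, with adjusted p of 0.0521 to 0.158 without shCtrl replicate 1, 0.0509 to 0.0897 without shCtrl replicate 2 and 0.0591 to 0.142 without shXBP1 replicate 1. The falls of ZBTB26 and ZBTB43 and the rises of ZBTB2 and ZBTB5 held under each alternative tried.

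**Figure D1:**
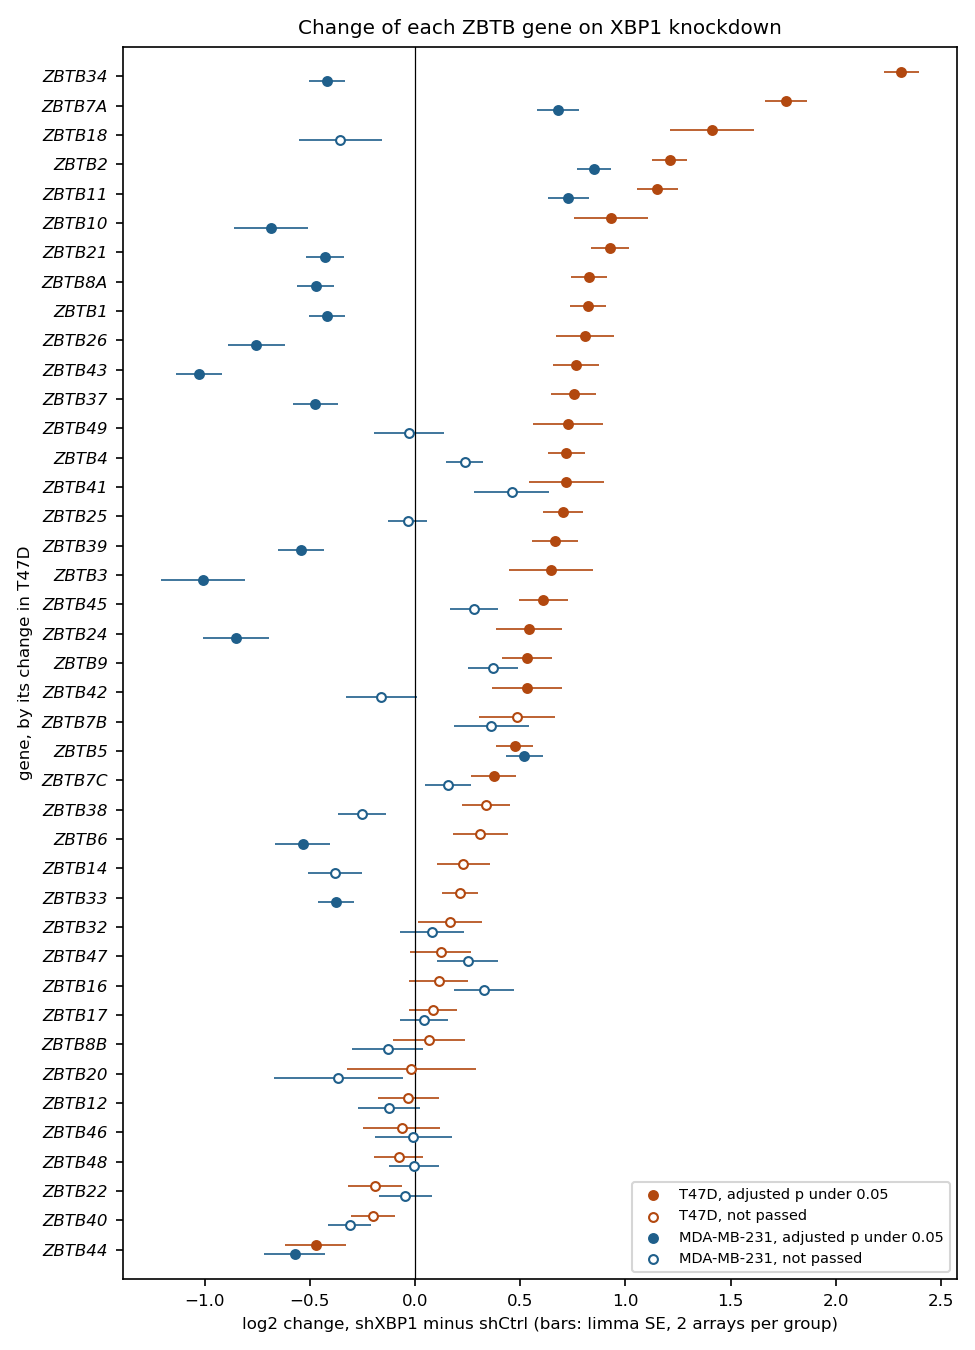
The plot gives the log2 change of shXBP1 against shCtrl for each of the 41 ZBTB genes in T47D and in MDA-MB-231, with bars for limma's standard error (2 arrays per group), filled where the adjusted p is under 0.05. The T47D points lie mostly to the right of 0, up to 2.31 for ZBTB34, and many MDA-MB-231 points lie to the left, down to -1.03 for ZBTB43.

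Members that moved in opposite directions in the 2 lines formed the largest group with a call in both. There were 11 of them (26.8% of members, against 1.70% of all genes), and in all 11 the difference between the lines passed its own test, as it did in all 336 genes with this pattern, since 2 calls of opposite sign leave little room for another outcome. This count was 4 with shCtrl replicate 1 of MDA-MB-231 left out, 6 without its shCtrl replicate 2, 7 without its shXBP1 replicate 1, and 4 with each line fitted alone.

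ZBTB34, a little-studied member, had the largest change of the family. It read 7.08 and 7.04 with shCtrl and 9.39 and 9.36 with shXBP1 in T47D, and 7.69 and 7.77 against 7.34 and 7.28 in MDA-MB-231. Both knocked-down T47D arrays were thus the highest of all 8, while the knocked-down MDA-MB-231 arrays lay under their controls. The T47D rise was 2.31 (SE 0.08), or 4.96-fold, with an adjusted p of 8.68e-06, and MDA-MB-231 fell by 0.42 (SE 0.08, adjusted p = 0.0135). Without MDA-MB-231 shCtrl replicate 2 that fall was 0.38 in size with an adjusted p of 0.0645. The effects differed by -2.73 between the lines (adjusted p = 6.4e-05).

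ZBTB43, its neighbour, is known for a role in DNA methylation in male germ cells of the mouse. Its levels were 9.25 and 9.32 with shCtrl and 10.06 and 10.04 with shXBP1 in T47D, and 9.74 and 9.52 against 8.51 and 8.70 in MDA-MB-231. The groups were apart in both lines and in opposite order. It rose by 0.77 (SE 0.11, adjusted p = 0.00147) in T47D and fell by 1.03 (SE 0.11, 2.04-fold, adjusted p = 0.00096) in MDA-MB-231, the largest fall of the family there. All 5 of its probe sets went the same way, at 0.47 to 1.07 in T47D (4 called) and -0.53 to -1.41 in MDA-MB-231 (4 called).

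ZBTB10 is known in breast cancer cells as a repressor of SP transcription factor genes and as a target of miR-27a. It read 9.57 and 9.73 against 10.51 and 10.65 in T47D, and 8.66 and 8.60 against 7.66 and 8.23 in MDA-MB-231. The T47D pairs stood well apart, whereas the knocked-down MDA-MB-231 arrays also differed from each other. The rise was 0.93 (SE 0.18, adjusted p = 0.00543) and the fall 0.68 in size (-0.68, SE 0.18, adjusted p = 0.0351), and the fall lost its call without any one of the other arrays except MDA-MB-231 shXBP1 replicate 2, with adjusted p of 0.0535 to 0.128. Over its 7 probe sets the T47D changes ran from -0.12 to 1.03 with 4 called higher, and the MDA-MB-231 changes from -0.69 to 0.10 with 2 called lower.

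ZBTB24 is mutated in an immunodeficiency syndrome with unstable, undermethylated centromeres. Its levels were 8.80 and 9.05 against 9.52 and 9.42 in T47D and 10.06 and 9.92 against 8.92 and 9.35 in MDA-MB-231. It rose by 0.54 (SE 0.16, adjusted p = 0.0355) and fell by 0.85 (SE 0.16, adjusted p = 0.0093), so that the lines lay further apart with shCtrl than with shXBP1. The rise was not called without T47D shCtrl replicate 1 (0.41, adjusted p = 0.182), shXBP1 replicate 1 (0.49, 0.167) or shXBP1 replicate 2 (0.59, 0.0977), and the fall was not called without MDA-MB-231 shCtrl replicate 1 (-0.78, 0.0535). A second probe set gave 0.76 and -0.94, but the remaining one gave 0.32 (adjusted p = 0.0804) in T47D and was called higher in MDA-MB-231, at 0.71 (adjusted p = 0.00449).

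ZBTB3 read 8.34 and 8.25 against 8.86 and 9.02 in T47D, and 8.01 and 7.59 against 6.51 and 7.07 in MDA-MB-231. Its fall there was the only other one of 2-fold or more, at -1.01 (SE 0.20, adjusted p = 0.0126), beside a rise of 0.65 (SE 0.20, adjusted p = 0.0447) in T47D. The second probe set gave 0.34 (adjusted p = 0.233) in T47D and -0.19 (adjusted p = 0.545) in MDA-MB-231. The rise was not called on the mean of both probe sets (0.49, adjusted p = 0.0553), after quantile normalization again (0.0536) or with the replicate number as a block (0.065). It had an adjusted p of 0.104 to 0.2 without any one T47D array, and the fall one of 0.0675 without MDA-MB-231 shCtrl replicate 1 and 0.0591 without shXBP1 replicate 1.

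ZBTB26 lies next to ZBTB6 in RefSeq's gene order. It read 7.27 and 7.44 against 8.21 and 8.11 in T47D and 7.13 and 6.84 against 6.36 and 6.10 in MDA-MB-231, with groups apart in both. Its changes were 0.81 (SE 0.14, adjusted p = 0.00333) and -0.75 (SE 0.14, adjusted p = 0.00882). The second probe set gave -0.40 (adjusted p = 0.0582) in T47D and -0.53 (adjusted p = 0.0279) in MDA-MB-231, so the probe sets part ways in T47D, and on their mean the T47D change was not called (0.20, adjusted p = 0.205). ZBTB6 itself read 6.24 and 6.55 against 6.72 and 6.70 in T47D, where it was not called (0.31, adjusted p = 0.12). In MDA-MB-231 it was under the median of all probe sets, at 5.34 and 5.12 against 4.76 and 4.63, and fell by 0.53 (SE 0.13, adjusted p = 0.0278). That fall was not called without either MDA-MB-231 shXBP1 array, MDA-MB-231 shCtrl replicate 1 or either T47D shXBP1 array, with adjusted p of 0.0555 to 0.134.

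ZBTB21 is known to bind another member, ZBTB14. It read 10.31 and 10.17 against 11.16 and 11.17 in T47D and 10.27 and 10.18 against 9.83 and 9.77 in MDA-MB-231. With shCtrl the lines differed by -0.02 (SE 0.09, adjusted p = 0.91), although the second probe set gave -0.60 (adjusted p = 0.00166). With shXBP1 both T47D arrays lay above both MDA-MB-231 arrays. The changes were 0.93 (SE 0.09, adjusted p = 0.000255) and -0.43 (SE 0.09, adjusted p = 0.0168), and the second probe set gave 0.73 and -0.81. The MDA-MB-231 fall had an adjusted p of 0.0871 without shCtrl replicate 1 and 0.0605 without shXBP1 replicate 2. ZBTB14, a repressor of the MYC promoter also called ZF5, passed in neither line (0.23 and -0.38, adjusted p = 0.237 and 0.082).

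ZBTB8A, whose promoter window held TGACGTGG, read 9.12 and 9.12 against 9.90 and 9.99 in T47D and 10.13 and 10.05 against 9.58 and 9.65 in MDA-MB-231. It rose by 0.83 (SE 0.09, adjusted p = 0.000326) and fell by 0.47 (SE 0.09, adjusted p = 0.00877), and without MDA-MB-231 shCtrl replicate 1 the fall had an adjusted p of 0.0521. Its neighbour ZBTB8B was dim, between 3.66 and 4.20 on all 8 arrays, and passed in neither line. ZBTB1, which is needed for lymphoid development, read 10.19 and 10.20 against 11.01 and 11.02 in T47D and 10.49 and 10.46 against 9.99 and 10.13 in MDA-MB-231. Its changes were 0.82 (SE 0.09, adjusted p = 0.000346) and -0.42 (SE 0.09, adjusted p = 0.0151), and the fall was not called without either MDA-MB-231 shCtrl array or shXBP1 replicate 1, with adjusted p of 0.0509 to 0.0707. ZBTB1 has 3 probe sets, of which the other 2 had means under the median of all probe sets, and on the mean of the 3 neither change was called (0.21, adjusted p = 0.0985, and -0.09, adjusted p = 0.524).

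ZBTB37 and ZBTB39 complete the 11. ZBTB37 read 6.04 and 6.18 against 6.91 and 6.82 in T47D and 6.19 and 6.24 against 5.63 and 5.85 in MDA-MB-231, changes of 0.75 (SE 0.11, adjusted p = 0.00139) and -0.47 (SE 0.11, adjusted p = 0.0213). Its second probe set gave 1.44 in T47D and 1.09 in MDA-MB-231 (adjusted p = 0.0808), so the fall was seen on 1 probe set. ZBTB39 read 7.77 and 7.60 against 8.38 and 8.32 in T47D and 7.13 and 7.30 against 6.75 and 6.59 in MDA-MB-231, changes of 0.67 (SE 0.11, adjusted p = 0.00286) and -0.54 (SE 0.11, adjusted p = 0.0137). The ZBTB37 fall was not called without either MDA-MB-231 shCtrl array or shXBP1 replicate 1 (adjusted p = 0.0707 to 0.0965), nor was that of ZBTB39 without shCtrl replicate 2 (0.0671) or shXBP1 replicate 2 (0.0619).

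**Figure D2:**
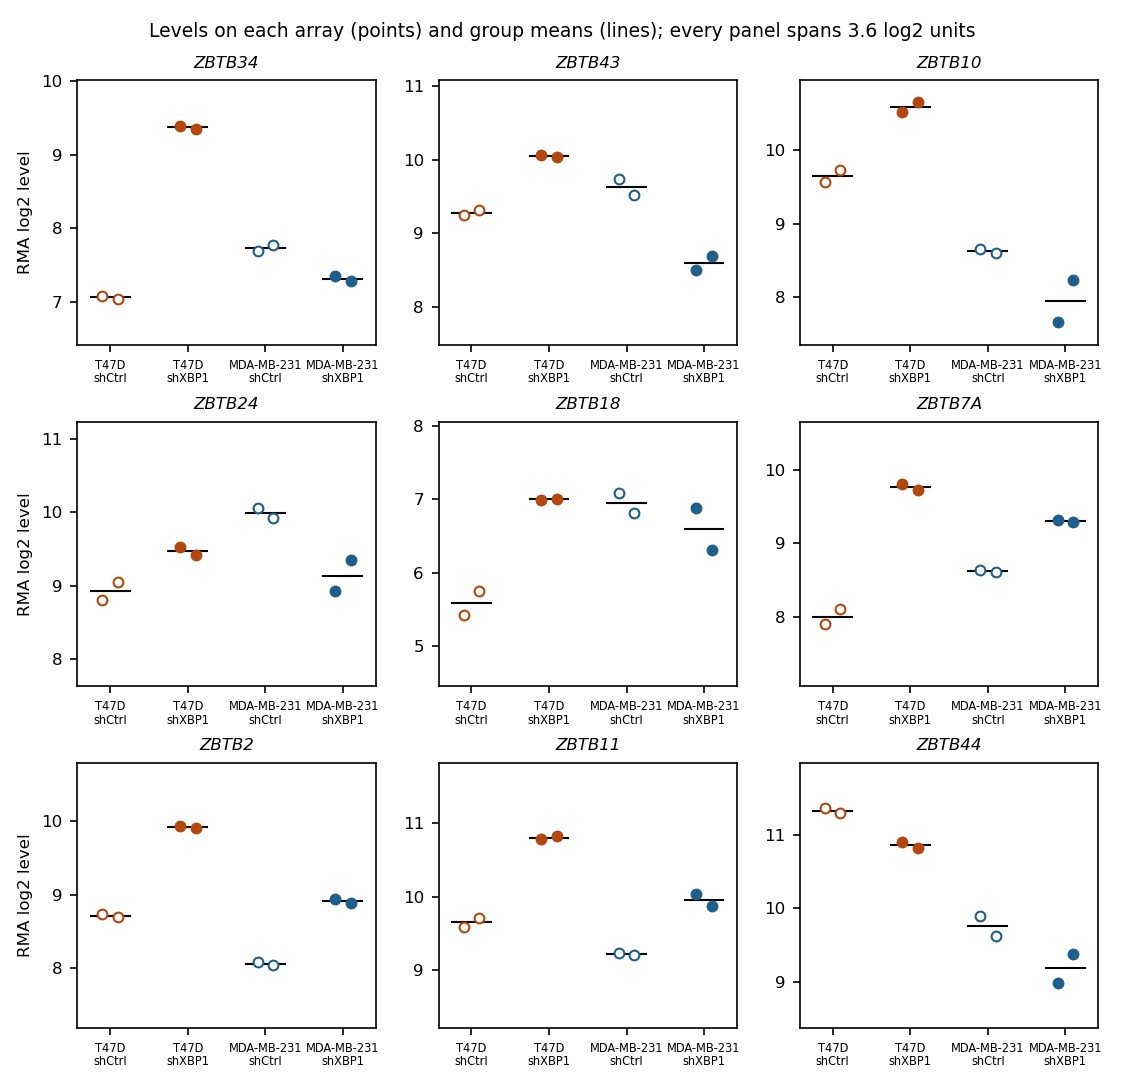
Each panel shows 1 gene's RMA log2 level on the 8 arrays (points) and the 4 group means (lines), with the same span of log2 units in every panel. ZBTB34, ZBTB43, ZBTB10 and ZBTB24 go up with shXBP1 in T47D and down in MDA-MB-231, ZBTB7A, ZBTB2 and ZBTB11 go up in both, and ZBTB44 goes down in both.

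Another 4 members rose in both lines (9.76%, against 3.32% of all genes): ZBTB7A, ZBTB2, ZBTB5 and ZBTB11. ZBTB7A, also called LRF, represses fetal globin and glycolytic genes. It read 7.90 and 8.11 against 9.81 and 9.72 in T47D, and 8.64 and 8.62 against 9.32 and 9.30 in MDA-MB-231. Arrays with shXBP1 lay above those with shCtrl in each line. The T47D rise was 1.76 (SE 0.10, 3.39-fold, adjusted p = 3.21e-05), that in MDA-MB-231 was 0.68 (SE 0.10, 1.60-fold, adjusted p = 0.00342), and they differed by -1.08 (adjusted p = 0.00144). Its other 5 probe sets were dimmer, and over all 6 the T47D changes ran from -0.05 to 1.76 with 3 called higher, and the MDA-MB-231 changes from -0.30 to 0.68 with 1 called higher. On the mean of the 6 the MDA-MB-231 rise was not called (0.20, adjusted p = 0.213).

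ZBTB2 and ZBTB5 are both known as repressors of CDKN1A, the gene of the cell cycle inhibitor p21. ZBTB2 read 8.73 and 8.69 against 9.94 and 9.91 in T47D, and 8.08 and 8.04 against 8.94 and 8.88 in MDA-MB-231. Its rises were 1.21 (SE 0.08, adjusted p = 6.12e-05) and 0.85 (SE 0.08, adjusted p = 0.000622), and their difference did not pass (-0.36, SE 0.12, adjusted p = 0.0585). ZBTB5 read 10.08 and 10.04 against 10.54 and 10.52 in T47D, and 8.42 and 8.54 against 8.95 and 9.04 in MDA-MB-231. Its rises were 0.47 (SE 0.09, adjusted p = 0.00513) and 0.52 (SE 0.09, adjusted p = 0.00654), with a difference of 0.05 (SE 0.13, adjusted p = 0.838). CDKN1A itself read 9.75 and 9.81 against 9.80 and 9.75 in T47D (-0.01, SE 0.14, adjusted p = 0.977) and was called higher in MDA-MB-231, at 0.49 (SE 0.14, adjusted p = 0.0488).

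ZBTB11, which is needed for mitochondrial respiration, read 9.59 and 9.72 against 10.78 and 10.82 in T47D and 9.24 and 9.21 against 10.04 and 9.87 in MDA-MB-231. It rose by 1.15 (SE 0.10, adjusted p = 0.000138) and by 0.73 (SE 0.10, adjusted p = 0.00242). A second, dimmer probe set was called lower in T47D (-0.55, adjusted p = 0.0171) and gave -0.41 in MDA-MB-231 (adjusted p = 0.0793). The probe sets of ZBTB11 thus disagreed in direction in both lines, and on their mean neither rise was called (0.30, adjusted p = 0.069, and 0.16, adjusted p = 0.36).

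ZBTB44 was the 1 member that fell in both lines (1.93% of all genes did). It read 11.36 and 11.30 against 10.90 and 10.81 in T47D, and 9.89 and 9.62 against 8.99 and 9.38 in MDA-MB-231. The falls were -0.47 (SE 0.15, adjusted p = 0.0451) and -0.57 (SE 0.15, adjusted p = 0.0341). In T47D the call was lost without any one of that line's arrays (adjusted p = 0.119 to 0.192), and in MDA-MB-231 it was lost without any one array other than its own shCtrl replicate 2 and shXBP1 replicate 2 (0.056 to 0.158). Of its 5 probe sets, 4 were called lower in MDA-MB-231 and 1 in T47D with probe sets tested singly. Their T47D changes ran from -0.52 to 0.05, and the brightest then had an adjusted p of 0.0536. On the mean of the 5 the T47D fall was not called (-0.245, adjusted p = 0.195).

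A further 9 members rose in T47D and were not called in MDA-MB-231, and the difference between the lines passed for 3 of them, ZBTB4, ZBTB18 and ZBTB25. Among all genes with this pattern it passed for 1351 of 2078. ZBTB18, also called RP58, is a repressor known from cortical neurons. It read 5.42 and 5.75 against 6.99 and 7.01 in T47D, and 7.09 and 6.81 against 6.87 and 6.31 in MDA-MB-231. The knocked-down T47D arrays thus reached the levels of the MDA-MB-231 controls. The T47D rise was 1.41 (SE 0.20, adjusted p = 0.00134), the MDA-MB-231 change was -0.36 (SE 0.20, adjusted p = 0.284), and they differed by -1.77 (adjusted p = 0.00337). A dimmer probe set gave 0.56 in T47D and was called lower in MDA-MB-231 (-0.65, adjusted p = 0.00954).

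ZBTB25 read 8.17 and 8.09 against 8.91 and 8.76 in T47D, a rise of 0.70 (SE 0.09, adjusted p = 0.00107), while MDA-MB-231 gave 7.51 and 7.61 against 7.53 and 7.52 (-0.03, adjusted p = 0.855). The other 6, ZBTB7C, ZBTB9, ZBTB41, ZBTB42, ZBTB45 and ZBTB49, rose by 0.37 to 0.73 in T47D, with MDA-MB-231 values between -0.16 and 0.46. ZBTB49 is known as an activator of CDKN1A, and it read 6.27 and 6.39 against 7.08 and 7.04 in T47D (0.73, SE 0.17, adjusted p = 0.0131). Its T47D rise was not called without shCtrl replicate 1 (adjusted p = 0.0749), shXBP1 replicate 1 (0.0722) or shXBP1 replicate 2 (0.0599). The rises of ZBTB7C and ZBTB41 were not called without any one T47D array, that of ZBTB9 without shCtrl replicate 1 or shXBP1 replicate 1, and that of ZBTB42 without shCtrl replicate 1 or either shXBP1 array, with adjusted p of 0.0587 to 0.256. ZBTB42 was also not called without either MDA-MB-231 shCtrl array (adjusted p = 0.0648). ZBTB45 kept its call without any one array and lost it on other choices of probe set.

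The members that bind methylated CpG sites are ZBTB33 (Kaiso), ZBTB4 and ZBTB38. On their brightest probe sets all 3 had a positive value in T47D and an MDA-MB-231 effect below the T47D effect (-0.59, -0.48 and -0.59). Most of the family did so too, with 34 of 41 T47D values above 0 and 35 of 41 differences below 0. The calls of these 3 within a line differed. A dim second probe set of ZBTB33 gave -0.08 in T47D (adjusted p = 0.807). ZBTB4 read 9.03 and 8.90 against 9.67 and 9.70 in T47D and 8.40 and 8.32 against 8.61 and 8.58 in MDA-MB-231. It rose in T47D by 0.72 (SE 0.09, adjusted p = 0.000697), with 0.24 (SE 0.09, adjusted p = 0.117) in MDA-MB-231. ZBTB33 read 9.93 and 9.96 against 10.11 and 10.20 in T47D (0.21, SE 0.09, adjusted p = 0.11) and 10.79 and 10.78 against 10.36 and 10.46 in MDA-MB-231, where it fell by 0.38 (SE 0.09, adjusted p = 0.0224). The ZBTB33 fall was not called without either MDA-MB-231 shCtrl array or shXBP1 replicate 1, with adjusted p of 0.0733 to 0.0901.

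ZBTB38 passed in neither line on its brightest probe set, at 10.08 and 10.20 against 10.46 and 10.49 in T47D (0.34, SE 0.11, adjusted p = 0.0613) and 10.49 and 10.25 against 10.03 and 10.21 in MDA-MB-231 (-0.25, SE 0.11, adjusted p = 0.185). Another 3 of its 5 probe sets were called lower in MDA-MB-231, at -1.26, -1.02 and -0.83 (adjusted p = 0.00461, 0.00143 and 0.0125), and gave -0.13, -0.14 and -0.04 in T47D. The remaining probe set gave -0.13 in T47D and 0.04 in MDA-MB-231. Whether this gene is called in MDA-MB-231, and the sign of its T47D value, therefore depend on the probe set read.

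Among the members best known from blood, tumours and the cell cycle, none of the following passed in either line on its brightest probe set. ZBTB17, the partner of MYC called MIZ1, read 8.10 and 8.01 against 8.28 and 8.0 in T47D (0.08, SE 0.11, adjusted p = 0.659) and 7.72 and 7.77 against 7.73 and 7.85 in MDA-MB-231 (0.04, SE 0.11, adjusted p = 0.85). ZBTB16, the PLZF gene of a leukaemia fusion, was dim, between 4.32 and 4.93 on all arrays, with changes of 0.11 (adjusted p = 0.631) and 0.33 (adjusted p = 0.167). ZBTB7B, which directs the CD4 fate of T cells, read 7.48 and 7.49 against 8.11 and 7.83 in T47D (0.48, SE 0.18, adjusted p = 0.0838) and 7.09 and 7.51 against 7.84 and 7.48 in MDA-MB-231 (0.36, SE 0.18, adjusted p = 0.225). A second ZBTB7B probe set was called higher in T47D (0.50, adjusted p = 0.0259), so the call depends on the probe set read. ZBTB20, a repressor of the fetoprotein gene AFP in liver, had changes of -0.02 (SE 0.31) and -0.37 (SE 0.31). Another of its 12 probe sets was called higher in T47D (0.52, adjusted p = 0.0222). A different, dim probe set of this gene was called lower in MDA-MB-231 (-0.44, adjusted p = 0.0376). The others that passed in neither line were ZBTB8B, ZBTB12, ZBTB14, ZBTB22, ZBTB32, ZBTB38, ZBTB40, ZBTB46, ZBTB47 and ZBTB48. That makes 14 in all (34.1%, against 62.4% of all genes). With probe sets tested singly, another ZBTB40 probe set was called lower in MDA-MB-231 (-0.92, adjusted p = 0.00313). Another of ZBTB46, under the median of all probe sets, was called higher in T47D (0.51, adjusted p = 0.0113).

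The difference between the lines was tested for every member. Of the 41, 19 had an MDA-MB-231 effect below the T47D effect (46.3%, against 11.8% of all genes called lower, 13.0% called higher and 24.8% in either direction), and 0 had one above it. The 0 rests on limma's test of the brightest probe sets, and 23 members had an unadjusted p under 0.05 in either direction. ZBTB47 gave 0.13 (adjusted p = 0.711) on its brightest probe set. Another of its 3 probe sets, also over the median level, was called higher (0.86, adjusted p = 0.0192). So was the mean of its probe sets (0.48, adjusted p = 0.0289). The median difference over the 41 members was -0.48 on the log2 scale, against 0.05 over all genes, with a range of -2.73 to 0.22. Of these 19 calls, 11 held under every alternative tried: ZBTB3, ZBTB6, ZBTB8A, ZBTB10, ZBTB18, ZBTB21, ZBTB24, ZBTB25, ZBTB34, ZBTB39 and ZBTB43. Those of ZBTB14 and ZBTB38 were lost without any one T47D array or without MDA-MB-231 shCtrl replicate 1, that of ZBTB14 also without shXBP1 replicate 2 of that line, and that of ZBTB38 without its shXBP1 replicate 1. The ZBTB4 call was lost without T47D shCtrl replicate 2, either T47D shXBP1 array, MDA-MB-231 shCtrl replicate 1 or shXBP1 replicate 2. Over these 3 genes the adjusted p then lay between 0.0535 and 0.142, and ZBTB33 had 0.0514 without T47D shXBP1 replicate 2. Calls were also lost on other choices of probe set. On the mean of a gene's probe sets the difference was -0.30 for ZBTB1 (adjusted p = 0.1), -0.43 for ZBTB7A (0.0573), -0.42 for ZBTB14 (0.0812), -0.35 for ZBTB33 (0.128) and -0.76 for ZBTB37 (0.0534), and ZBTB26 gave -0.13 (0.694) on its other probe set.

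**Figure D3:**
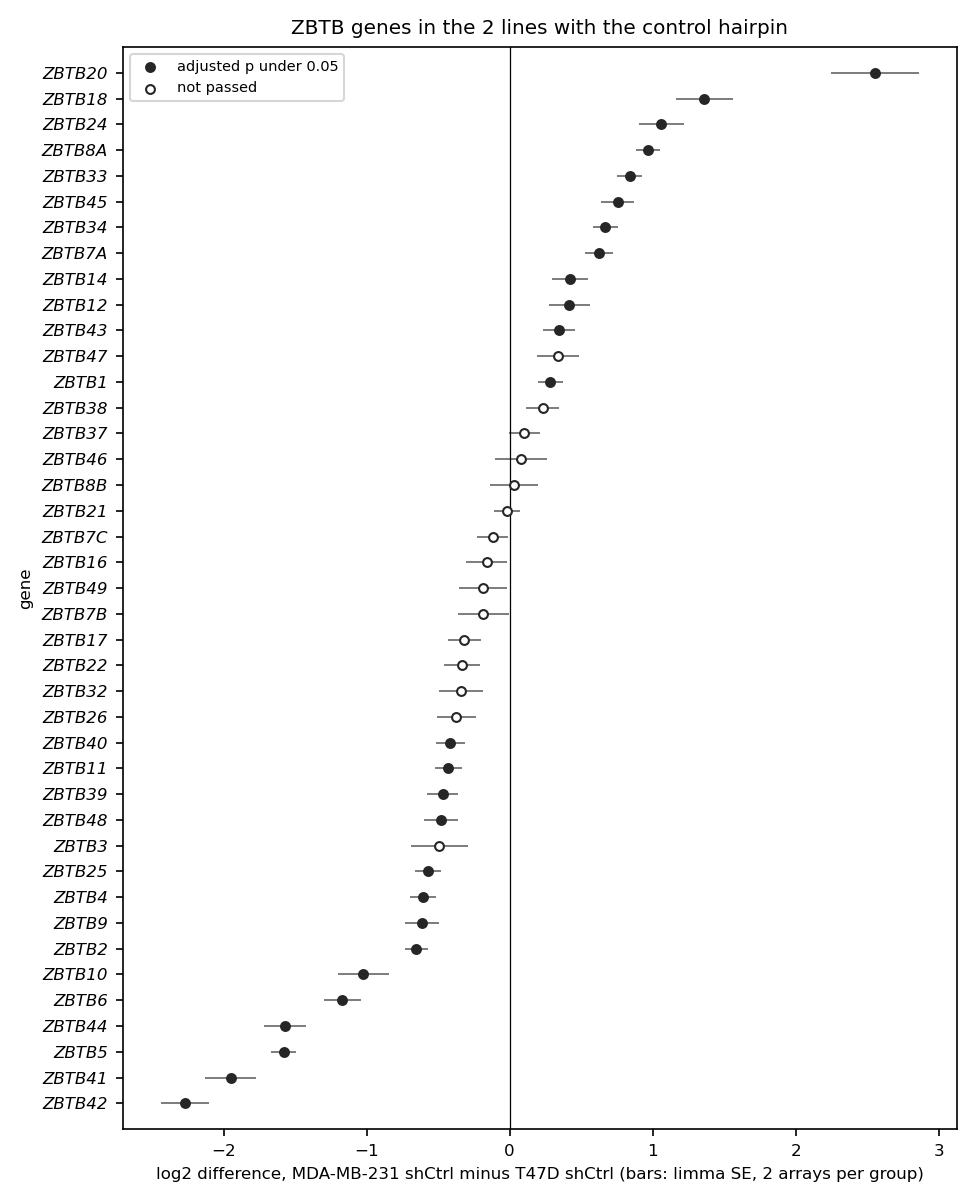
The plot gives the log2 difference between MDA-MB-231 and T47D with the control hairpin for each ZBTB gene, with bars for limma's standard error (2 arrays per group) and filled points where the adjusted p is under 0.05. ZBTB20 stands furthest to the right, at 2.56, and ZBTB42 furthest to the left, at -2.27.

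With the control hairpin alone, 26 of the 41 members (63.4%) and 49.0% of all genes were called between the lines. MDA-MB-231 was higher than T47D for 12 members (29.3%) and lower for 14 (34.1%), against 23.7% and 25.2% of all genes. These shares are not matched for level. With genes under the median of all probe sets left out of the fit, 8910 of 12701 genes were called between the lines, a larger share than 49.0%. No excess in the family is therefore read from these numbers. The arrays did not overlap for 35 members, against 71.0% of all genes. These controls also enter the knockdown comparisons, so the values are given on their own and not set against the knockdown changes.

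ZBTB20 had the largest difference. It read 5.86 and 4.98 in T47D and 8.0 and 7.95 in MDA-MB-231, 2.56 higher (SE 0.31, adjusted p = 0.000192). Each of its 12 probe sets was higher in MDA-MB-231, by 0.24 to 3.14. ZBTB18 (1.36, adjusted p = 0.000599) and ZBTB24 (1.06, adjusted p = 0.000653) came next among the members higher there. They were followed by ZBTB8A (0.97), ZBTB33 (0.84), ZBTB45 (0.76), ZBTB34 (0.67) and ZBTB7A (0.62). With probe sets tested singly, another ZBTB24 probe set was called lower in MDA-MB-231 (-0.32, adjusted p = 0.0483), so its direction depends on the probe set read.

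Lower in MDA-MB-231 were ZBTB42, at 7.78 and 8.11 in T47D and 5.71 and 5.63 in MDA-MB-231 (-2.27, SE 0.17, adjusted p = 1.18e-05), and ZBTB41, at 9.44 and 9.54 against 7.55 and 7.53 (-1.95, SE 0.18, 3.86-fold, adjusted p = 3.82e-05). ZBTB5 (-1.58, adjusted p = 2.55e-06), ZBTB44 (-1.57, adjusted p = 4.31e-05), ZBTB6 (-1.17, adjusted p = 0.000118) and ZBTB10 (-1.02, adjusted p = 0.00153) came next in size. With probe sets tested singly, a dim ZBTB10 probe set was called higher in MDA-MB-231 (0.52, adjusted p = 0.0104). So was a dim probe set of ZBTB44 (0.49, adjusted p = 0.0467). Of the 26 calls between the lines, 17 held under every alternative tried.

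The choice of probe set matters for this family, since 24 members had several and 17 had 1. Tested each on its own, 40 of the 99 ZBTB probe sets were called higher and 2 lower in T47D, and 5 higher and 30 lower in MDA-MB-231. Of all 41091 probe sets tested, 13.2% and 11.0% were called higher and lower in T47D, and 7.80% and 8.03% in MDA-MB-231. Among the 58 that were not the brightest of their gene, 17 were called higher and 2 lower in T47D, and 1 higher and 16 lower in MDA-MB-231, against 12.0%, 9.85%, 6.14% and 9.93% of all such probe sets. Of these 58, 28 had a mean under the median of all probe sets. In ZBTB11 (T47D) and ZBTB24 (MDA-MB-231) called probe sets of 1 gene disagreed in direction.

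**Figure D4:**
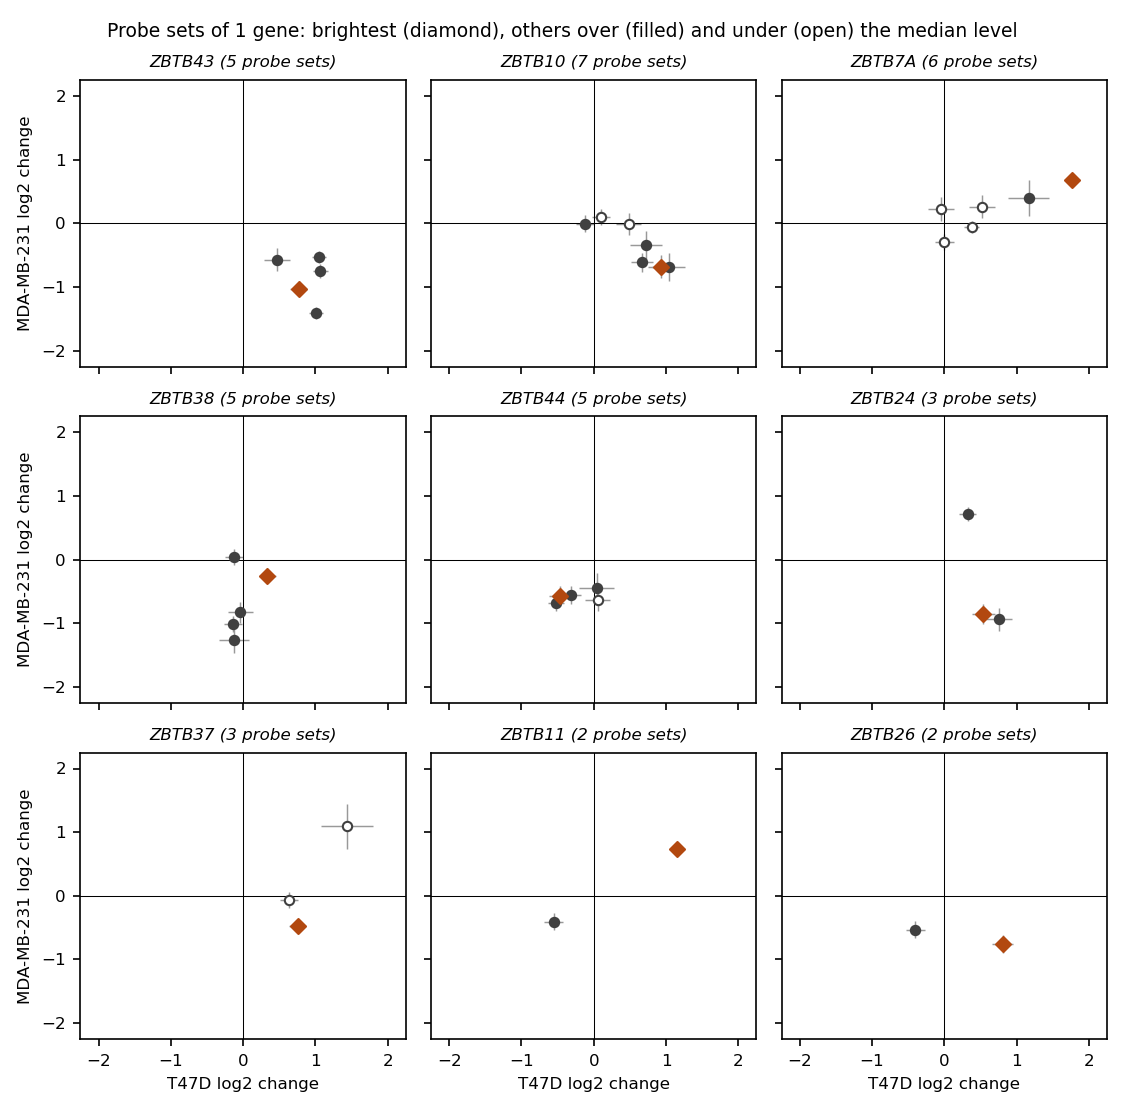
Each panel plots the probe sets of 1 ZBTB gene by their log2 change in T47D (x axis) and in MDA-MB-231 (y axis), with bars for limma's standard error, a diamond for the brightest probe set, and open points for means under the median of all probe sets. The 5 probe sets of ZBTB43 all lie right of and below 0, whereas the 2 of ZBTB11 lie on opposite sides of 0 in both lines.

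BTB zinc finger genes under other names were a small list. Of 7 measured, 4 rose in T47D (57.1%) and 0 fell, with a median of 0.36 (by limma's test, with 5 at an unadjusted p under 0.05). In MDA-MB-231, 1 rose and 1 fell (14.3% each). Of all genes, 15.5% rose and 13.5% fell in T47D, and 10.6% rose and 6.68% fell in MDA-MB-231. HIC2 read 6.72 and 6.64 against 8.16 and 8.05 in T47D (1.42, SE 0.09, adjusted p = 5.13e-05) and rose by 0.58 (SE 0.09, adjusted p = 0.00456) in MDA-MB-231. BCL6, the repressor of germinal centre B cells, was not called in T47D (0.19, adjusted p = 0.126) and read 10.54 and 10.52 against 9.69 and 9.76 in MDA-MB-231, a fall of 0.80 (SE 0.08, adjusted p = 0.000756). GZF1, PATZ1 and MYNN were the others that rose in T47D, by 0.60, 0.56 and 0.36.

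Of 8 BTB genes without such fingers, 3 rose (37.5%) and 1 fell (12.5%) in T47D, beside 15.5% and 13.5% of all genes. In MDA-MB-231, 2 rose (25.0%) and 1 fell (12.5%), beside 10.6% and 6.68%. NACC2 read 6.56 and 6.82 against 9.77 and 9.82 in T47D (3.10, SE 0.12, 8.60-fold, adjusted p = 9.58e-06) and was not called in MDA-MB-231 (0.32, adjusted p = 0.123). BACH1, a repressor of haem oxygenase, rose by 0.58 (adjusted p = 0.00709) in T47D and fell by 1.08 (adjusted p = 0.000965) in MDA-MB-231. SPOP and NACC1 were called in MDA-MB-231 alone, at 1.06 and 0.92, and their effects differed between the lines (adjusted p = 0.00321 and 0.0385).

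Of 27 measured corepressors and deacetylases that ZBTB proteins hold, 7 rose (25.9%) and 3 fell (11.1%) in T47D, with a median of 0.08, beside the 15.5% and 13.5% of all genes. In MDA-MB-231, 5 rose (18.5%) and 4 fell (14.8%), with a median of 0.05, beside 10.6% and 6.68%. HDAC9 read 5.36 and 5.35 against 8.49 and 8.11 in T47D (2.95 on the log2 scale, SE 0.13, adjusted p = 1.37e-05), from controls under the median of all probe sets, and stayed between 4.84 and 4.89 in MDA-MB-231. SIN3A rose by 0.79 and 0.42 and TBL1X by 0.79 and 0.58, while HDAC3 fell by 0.58 and 0.54. HDAC1 and HDAC2 were called higher in MDA-MB-231, at 0.65 and 0.89, with -0.16 each in T47D.

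Of 13 measured genes known as targets of ZBTB proteins, 3 were called higher and 3 lower in T47D (23.1% each). In MDA-MB-231, 3 were called higher (23.1%) and 2 lower (15.4%). Of all genes, 15.5% were called higher and 13.5% lower in T47D, and 10.6% and 6.68% in MDA-MB-231. SP3, a reported ZBTB10 target, read 10.43 and 10.52 against 11.19 and 11.15 in T47D and 11.24 and 11.21 against 10.58 and 10.78 in MDA-MB-231. It rose by 0.69 (SE 0.10, adjusted p = 0.00134) and fell by 0.54 (SE 0.10, adjusted p = 0.00809), while SP4 rose in both lines (0.80 and 0.97) and SP1 was called in neither (-0.29 and -0.02). SLC2A3, a glucose transporter gene that ZBTB7A represses, fell by 2.01 (adjusted p = 2.2e-05) and 0.88 (adjusted p = 0.00132). CDKN2B, a cell cycle inhibitor gene, rose by 2.20 (adjusted p = 0.000119) and 1.57 (adjusted p = 0.00124).

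Other families of zinc finger genes were counted in the same way. Of 466 genes named ZNF and a number, 182 rose (39.1%) and 18 fell (3.86%) in T47D, with a median of 0.28. In MDA-MB-231, 42 rose and 42 fell (9.01% each). Of all genes, 15.5% rose and 13.5% fell in T47D, and 10.6% rose and 6.68% fell in MDA-MB-231. The share that rose in T47D and fell in MDA-MB-231 was 5.36% (25 genes), against 26.8% of ZBTB genes and 1.70% of all genes. Of 17 KLF genes, 7 rose (41.2%) and 0 fell in T47D by limma's test, and 8 had an unadjusted p under 0.05 in either direction. In MDA-MB-231, 4 rose and 4 fell (23.5% each). The pattern of a T47D rise and an MDA-MB-231 fall was seen in 2 (11.8%). No test set the ZBTB genes against these families, and more T47D rises than falls were found in all of them.

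**Figure D5:**
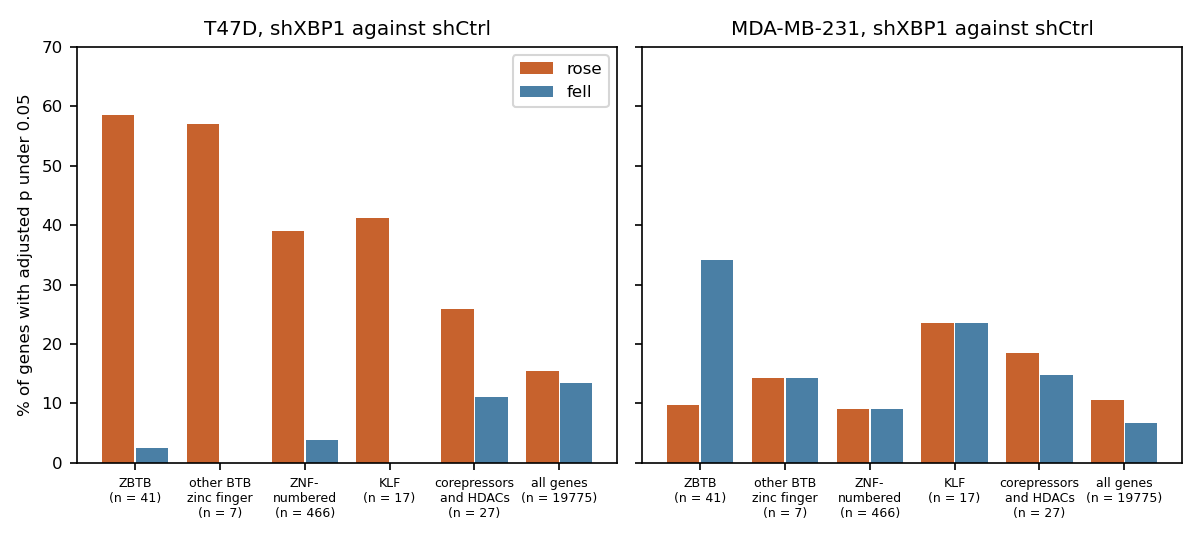
The bars show the percentage of genes called higher and lower with shXBP1 in each line, from 0, for ZBTB genes, other BTB zinc finger genes, ZNF-numbered genes, KLF genes, corepressors and HDACs, and all genes tested. In T47D the ZBTB bar reaches 58.5% called higher, and in MDA-MB-231 34.1% called lower.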

How the data were processed

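RNA of 8 samples was measured on 1-colour Affymetrix arrays with 54675 probe sets. The authors deposited log2 expression values, made with RMA in affy 1.30.0, per the submitters' processing notes. RMA corrects background, normalizes arrays by quantiles and compresses folds of dim genes. The set of arrays that RMA normalized jointly is unstated in the labels. The log2 values ran from 2.75 to 15.6, array medians from 5.87 to 5.91, and no further normalization was applied.

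Probe sets were named through GEO's platform annotation. Of 42898 listed probe sets, 41091 with 1 symbol were used and 1801 with several were not. Each of 19775 genes was read by its brightest probe set. With limma 3.58.1 under R 4.3.3, lmFit and eBayes were run on the 4 groups together, with 4 residual degrees of freedom (7.62 after moderation), two-sided tests and Benjamini-Hochberg adjustment over all genes. The median SE of a knockdown change was 0.119, and the number of arrays limits the precision. The smallest p of an exact permutation test on 2 and 2 arrays is 0.333. The labels call the replicates biological but do not say whether they came from separate cultures, so the spread behind each p-value is that of these samples and may be technical. The analysis was tested on simulated data.

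The members, lists and tests were chosen with earlier results of these data known. The rule for named genes was XBP1, then called members with arrays apart, up to 8 each way per comparison, 9 well-known members always, and up to 4 called genes per list; other members are given for completeness. The labels do not say whether equal replicate numbers mark samples handled together. Deviations from the group means correlated at -0.069 to 0.038 between groups, which cannot settle this with so few arrays. Alternatives were the fit, normalization, probe set choice, dim-gene filters and leaving out each array. Promoter windows came from RefSeq (GRCh38.p14).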

Additional observations from a re-analysis of the deposited data

Results flagged for a closer look

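For 19 members the knockdown effect differed between the lines by limma's test of the difference itself. In each the MDA-MB-231 effect was the lower one, on the log2 scale and given here as MDA-MB-231 minus T47D. The difference was -2.73 for ZBTB34, -1.79 for ZBTB43, -1.77 for ZBTB18, -1.66 for ZBTB3, -1.61 for ZBTB10 and -1.56 for ZBTB26. It was -1.39 for ZBTB24, -1.35 for ZBTB21, -1.30 for ZBTB8A, -1.24 for ZBTB1, -1.23 for ZBTB37 and -1.21 for ZBTB39. ZBTB7A followed with -1.08, from rises of unequal size in both lines. Smaller differences were -0.85 for ZBTB6, -0.74 for ZBTB25, -0.61 for ZBTB14, -0.59 for ZBTB33, -0.59 for ZBTB38 and -0.48 for ZBTB4. ZBTB14 and ZBTB38 were called in neither line on their own, so only the difference passed for them. On other choices of probe set the differences of ZBTB1, ZBTB7A, ZBTB14, ZBTB26, ZBTB33 and ZBTB37 were not called. Groups of 2 arrays are too small for a check of single outlying arrays.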

How the results depend on the processing

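In T47D the number of called members was 25 and stayed between 17 and 25 when 1 array was left out. In MDA-MB-231 it was 18, 8 with only the compared groups in the fit, and 8 to 16 with 1 array left out. The members called lower there were 14, 4 with only the compared groups, and 4 to 12 with 1 array left out. The members that rose in T47D and fell in MDA-MB-231 were 11, 4 with only the compared groups, and 4 to 9 with 1 array left out. The called differences between the lines ran from 15 to 20 and the called control differences from 22 to 27 with 1 array left out. Over all genes the MDA-MB-231 calls were 3410, 1897 with only the compared groups, 2063 without MDA-MB-231 shCtrl replicate 1 and 2152 without its shXBP1 replicate 1. With the replicate number as a block, 22 members were called in T47D and 10 rose there and fell in MDA-MB-231. Whether these numbers pair the samples is not stated in the labels.

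Some values reversed. With only probe sets without a suffix letter, chosen after seeing the data, T47D changes were -0.40 for ZBTB26 and -0.055 for ZBTB45. On the mean of a gene's probe sets ZBTB37 gave 0.18 in MDA-MB-231, and ZBTB43 gave -0.058 between the control groups. The cause was not tested beyond the probe sets' own values. All alternatives kept 13 of 25 calls in T47D, 4 of 18 in MDA-MB-231, 11 of 19 differences between the lines and 17 of 26 control differences. With 2 arrays per group, no knockdown change of a member smaller than 0.37 on the log2 scale was called, and dim members such as ZBTB16 carry little signal over background.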
